A study of Mus musculus with 2 samples.

Results

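The Notch genes described here are the receptors *Notch1*, *Notch2* and *Notch3*, the ligands *Dll1*, *Dll3* and *Jag1*, the glycosyltransferase *Mfng* and the Hes genes *Hes1*, *Hes5* and *Hes6*. They were taken by symbol, and all 10 were found among the 32285 genes of the count tables. To ask where in the embryonic cortex each of them was transcribed, single-cell RNA sequencing libraries of dissociated mouse cerebral cortex at E16.5 were read, which had been made with a 10x Genomics droplet kit that counts each captured poly(A) RNA by its unique molecular identifier (UMI). The 2 libraries, WT1 and WT4, form a single group of WT genotype, from control animals of an Eomes-Cre mouse line, with no treated or mutant group beside them, and whether these animals carried the Cre allele is not stated beyond that genotype. Whether each library is 1 embryo or a pool is not stated, so p-values measure only how well these libraries repeat each other, and that spread may be technical.

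Notch signalling passes between cells that touch. A Delta or Jagged ligand on a neighbouring cell opens the receptor to cleavage, the released intracellular domain enters the nucleus and joins the DNA-binding protein RBPJ, and Hes and Hey repressors are among the genes that it switches on. In the germinal zones of the forebrain this keeps radial glia, the stem cells of the cortex, from differentiating, while their daughters that turn towards a neuronal fate present ligand. Fringe enzymes such as *Mfng* add sugars to the receptor and change which ligands it answers to, *Dll3* is a divergent Delta protein that does not activate receptors on neighbours, and *Hes6* counteracts *Hes1* rather than acting as a classical Notch target. In vessels, the same receptors serve endothelium and the mural cells that wrap it.

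Because RBPJ and proneural factors act through promoters, the stretches of promoter that hold their core motifs are shown for the members that had them. RefSeq promoter entries (build GRCm38.p6, which is the mm10 assembly used for the counts) were matched by symbol for 8 of the 10 members, with 10 entries in all. The 250 bases before each start were searched on both strands for TGGGAA, the core of an RBPJ site, and for the E-box CAGCTG, which reads the same on both strands. The stretches are written 5′ to 3′ on the strand of the gene, 30 bases each, with the motif in capitals.
*Hes5*, chr4:154960685-154960714, plus strand: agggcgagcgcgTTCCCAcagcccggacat
*Hes5*, chr4:154960829-154960858, plus strand: ggccgccgagtgTGGGAAcggccgcggcgc
*Dll1*, chr17:15377047-15377076, minus strand: tgcattaccataCAGCTGagcgcacaaaga
*Dll3*, chr7:28301786-28301815, minus strand: aaatataagactccggcatccagCAGCTGc
*Hes6*, chr1:91414192-91414221, minus strand: cggaagcggctgCAGCTGccaactgtcacg
*Hes6*, chr1:91413355-91413384, minus strand: gctccgccccgcCAGCTGccagagacccgc
*Jag1*, chr2:137116585-137116614, minus strand: ccgcgtttcatgCAGCTGatctgaaaggga
The *Hes5* entry was the only 1 of the 10 with TGGGAA, which it held in both orientations, with first bases 226 and 82 bases before the start. That motif lay in 21.6% of the 32851 promoter entries of the mouse. The *Hes5* gene interval of RefSeq starts further upstream, at position 154960626, so that both stretches also lie inside the annotated gene. CAGCTG lay in 5 of the 10 entries and in 13.0% of all entries. Its matches began 132 bases before a start of *Dll1*, 7 before that of *Dll3*, 82 before that of *Jag1*, and 171 and 150 before the 2 starts of *Hes6*, the latter inside the annotated gene. The N-box CACNAG, searched alike, lay in 4 of the 10 entries and in 36.7% of all. A match is a description of letters and was not tested for binding.

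The libraries held 9049 and 13556 barcodes with 46398156 and 64324236 UMIs. Cells with 1500 to 60000 UMIs and under 10% mitochondrial UMIs were kept, which left 5966 and 10247 cells with a median of 5706 and 4938 UMIs. Each cell was then gated by the number of distinct marker genes detected in it, without the use of any Notch gene, into 1 of 14 kinds, and 64.0% and 59.4% of the cells met a gate. Gates held 25 to 1882 cells in WT1 and 41 to 3079 in WT4, and 40 barcodes occurred in both libraries. Markers that no gate used were highest in the gate they were set for in most gates, among them *Nes*, *Emx2* and *Fabp7* in radial glia, *Neurog2* in Eomes-positive radial glia, *Gsx2* in GABAergic progenitors, *Esam* and *Tek* in endothelial cells and *Vtn* in mural cells. The exceptions included *Anpep* and *Tbx18*, set for mural cells, and *Mfap4*, set for intermediate progenitors, which were highest in fibroblasts, and *Nkx2-1*, set for GABAergic progenitors, which was highest in interneurons. No check marker was highest in the intermediate progenitor gate, where *Neurog2* came second with 443 CPM ± 83.7 (SD, n = 2) after 643 CPM ± 11.7 in Eomes-positive radial glia.

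Levels are UMIs of a gene per 1000000 UMIs of a gate (CPM), in each library. Erythroid cells, which make up a gate by their globin share, should lack the neural genes and served as a gauge of free RNA. Every member but *Hes6* lay at or below 4.72 CPM there, and *Hes6* at 6.55 CPM in WT1 and 16.5 CPM in WT4. Globin UMIs, at least 30% of each erythroid cell, count in the totals and lower the values of all other genes there, so the gauge may be low. CPM values order the gates for a given gene. They are not compared between genes.

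**Figure D1:**
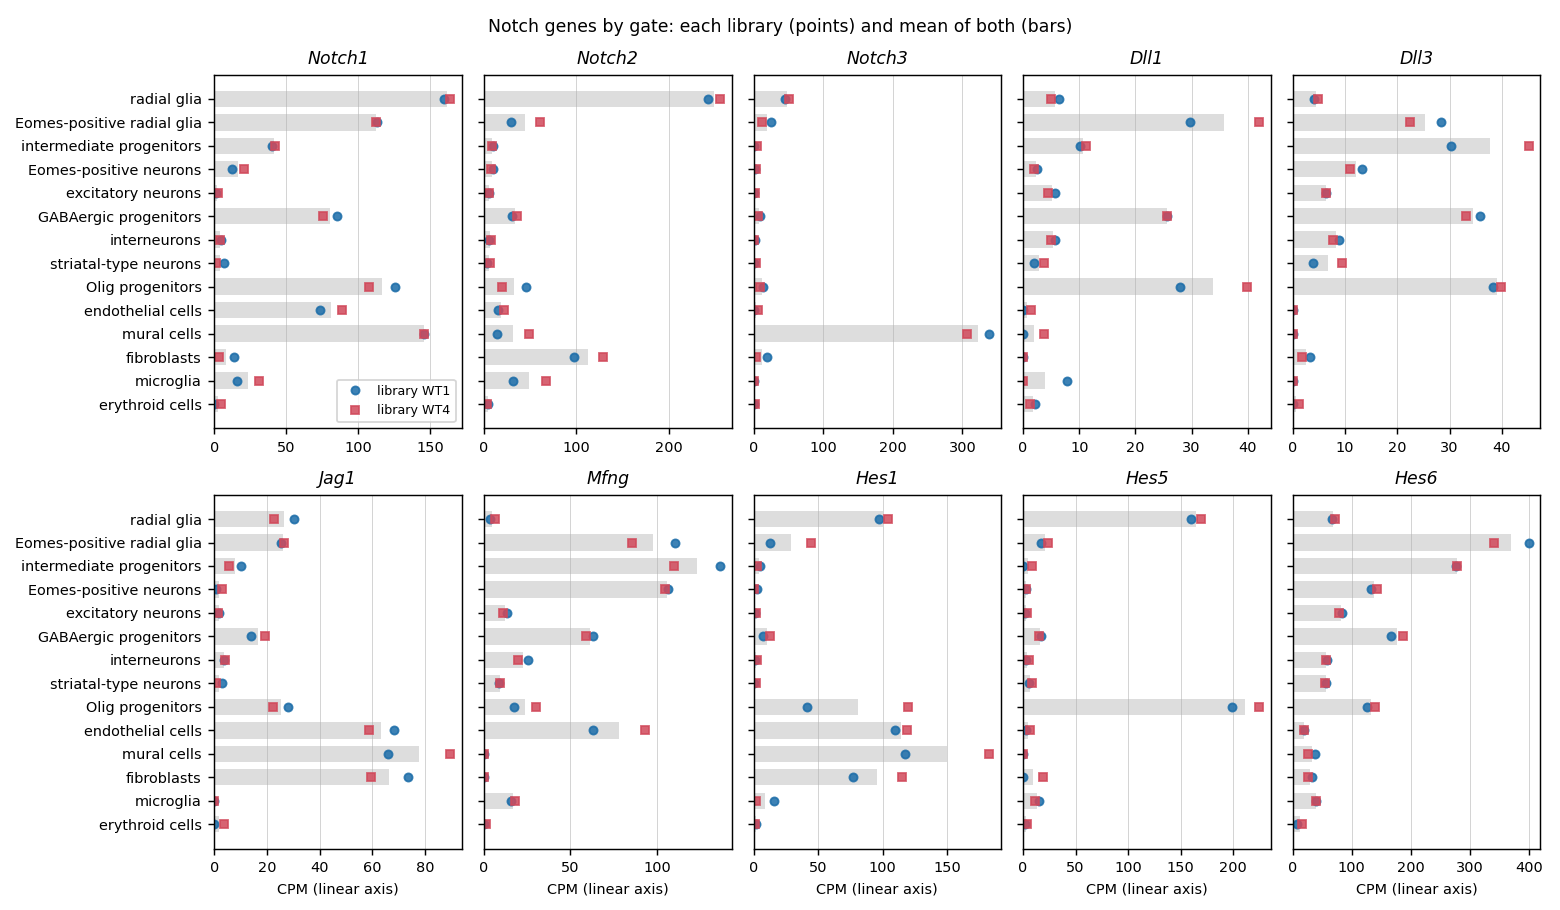
Level of each of the 10 Notch genes (x axis, CPM, linear, scaled per gene) in the 14 gates (y axis), with circles for library WT1, squares for WT4 and grey bars for their mean. *Notch2* and *Notch1* were highest in radial glia, *Notch3* in mural cells, *Hes6* and *Dll1* in Eomes-positive radial glia and *Mfng* in intermediate progenitors.

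*Notch1* (ENSMUSG00000026923), the receptor most studied in cortical progenitors, reached 159 CPM in WT1 and 164 CPM in WT4 in radial glia. Mural cells followed with 146 CPM in each library, Olig progenitors with 125 and 107 CPM, and Eomes-positive radial glia with 113 and 112 CPM. The libraries kept radial glia above mural cells and mural cells above the next gate, whereas Olig progenitors and Eomes-positive radial glia overlapped. Endothelial cells (73.3 and 88.7 CPM) and GABAergic progenitors (84.9 and 75.4 CPM) also overlapped. Intermediate progenitors held 40.4 and 42.3 CPM, Eomes-positive neurons 12.6 and 20.3 CPM, and excitatory neurons 1.36 and 2.25 CPM. A *Notch1* UMI was seen in 62.0% and 56.8% of radial glia. After thinning every cell to 1500 UMIs, the share was 22.6% ± 1.58 (SD, n = 2) in radial glia, against 0.206% ± 0.291 in erythroid cells, whose median depth was 2727.5 and 3108 UMIs against 6750 and 4616 in radial glia.

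*Notch2* (ENSMUSG00000027878), a second receptor of radial glia, was steeper. It stood at 243 and 255 CPM in radial glia, and at no more than 129 CPM in any other gate of either library. Fibroblasts came second with 97.1 and 129 CPM, microglia next with 31.1 and 66.7 CPM, and then Eomes-positive radial glia with 29.7 and 60.2 CPM. In WT4, 22 of 60 fibroblasts and 22 of 72 microglia had doublet scores in the range removed in an alternative run. In WT1 it was 3 of 25 of each. The part of such cells in these levels was not tested. From microglia down to mural cells (14.1 and 48.5 CPM) the libraries of neighbouring gates overlapped, so that no order is given there. Intermediate progenitors held 2 and 3 *Notch2* UMIs, or 10.1 and 8.46 CPM.

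*Notch3* (ENSMUSG00000038146), the receptor of pericytes and vascular smooth muscle, stood at 339 and 306 CPM in mural cells. Radial glia held 45.8 and 51.6 CPM, and Eomes-positive radial glia 25.4 and 12.6 CPM. Both gaps exceeded the spread of the libraries. Endothelial cells held 0 and 5 *Notch3* UMIs, intermediate progenitors 0 and 2. *Notch3* UMIs were seen in 80.8% and 75.6% of mural cells, and in 27.5% and 22.7% of radial glia.

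Among the ligands, *Dll1* (ENSMUSG00000014773) marked a narrow set of progenitors. It stood at 29.7 and 42.0 CPM in Eomes-positive radial glia, 27.9 and 39.9 CPM in Olig progenitors and 25.6 CPM in each library in GABAergic progenitors. The former 2 overlapped, and both libraries of either lay above GABAergic progenitors. Intermediate progenitors held 10.1 and 11.3 CPM, on only 2 and 4 UMIs, and their place against radial glia was not settled by the test (adjusted p = 0.526, edgeR). Radial glia (6.47 and 4.90 CPM), interneurons and excitatory neurons overlapped.

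*Dll3* (ENSMUSG00000003436) was highest in 3 gates, Olig progenitors with 38.3 and 39.9 CPM, intermediate progenitors with 30.3 and 45.1 CPM, which overlapped the others, and GABAergic progenitors with 35.8 and 33.2 CPM. Eomes-positive radial glia lay below them at 28.3 and 22.4 CPM, and Eomes-positive neurons at 13.2 and 10.9 CPM. Radial glia held 3.98 and 4.90 CPM. No *Dll3* UMI was counted in endothelial or mural cells in either library.

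*Jag1* (ENSMUSG00000027276) had its 3 highest gates outside the neural lineage. Mural cells held 65.9 and 89.6 CPM, fibroblasts 73.7 and 59.4 CPM and endothelial cells 68.1 and 58.7 CPM, and these overlapped. Radial glia (30.4 and 22.6 CPM), Eomes-positive radial glia (25.4 and 26.6 CPM) and Olig progenitors (27.9 and 22.4 CPM) overlapped with each other below them. Excitatory and striatal-type neurons and microglia lay at or below the erythroid share of cells with a *Jag1* UMI after thinning, which reads as background.

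*Mfng* (ENSMUSG00000018169), the Manic Fringe enzyme, had its highest means in the Eomes-expressing gates. Intermediate progenitors held 136 and 110 CPM, Eomes-positive neurons 106 and 104 CPM and Eomes-positive radial glia 110 and 85.4 CPM. Endothelial cells held 62.9 and 92.8 CPM, which overlapped Eomes-positive radial glia, and GABAergic progenitors 62.9 and 59.2 CPM. Radial glia were far below at 3.48 and 6.40 CPM, and no *Mfng* UMI was counted in mural cells or fibroblasts, where 3 UMIs would have been 14.1 and 11.2 CPM in mural cells.

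The Hes repressors *Hes1* (ENSMUSG00000022528) and *Hes5* (ENSMUSG00000048001), read in many tissues as a sign of Notch activity, differed in where they were found outside radial glia. *Hes1* stood at 118 and 183 CPM in mural cells, 110 and 119 CPM in endothelial cells, 97.5 and 104 CPM in radial glia and 77.0 and 115 CPM in fibroblasts. *Hes5* stood at 199 and 224 CPM in Olig progenitors and 159 and 169 CPM in radial glia, and no library of any other gate passed 23.8 CPM. No *Hes5* UMI was counted in mural cells, and endothelial cells held 1 and 5. *Hes1* in Olig progenitors differed between the libraries, at 41.8 CPM in WT1 and 120 CPM in WT4.

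*Hes6* (ENSMUSG00000067071), the Hes protein of differentiating cells, followed another order. It stood at 400 and 342 CPM in Eomes-positive radial glia, 278 and 279 CPM in intermediate progenitors, 167 and 186 CPM in GABAergic progenitors and 133 and 142 CPM in Eomes-positive neurons. Each of these lay above the next in both libraries. Excitatory neurons held 83.2 and 79.3 CPM, above the 66.7 and 71.2 CPM of radial glia.

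Comparisons between gates were tested on the UMIs summed per library and gate with the quasi-likelihood test of edgeR, with the library as a block, over 15711 genes. A gene was called at a Benjamini-Hochberg adjusted p under 0.05. Log2 fold changes are given with their standard error (SE). For a comparison that lies between gates of the same libraries, n = 2 libraries. The spread was estimated from the sums of all gates in a single fit, so these p-values do not rest on the compared gates alone.

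Eomes-positive radial glia, gated by radial glial markers together with a UMI of the intermediate progenitor gene *Eomes*, were compared with the other radial glia. The name is that of the gate, in which *Neurog2* was also highest. Its median depth was 9074 and 7150 UMIs, against 6750 and 4616 in radial glia. A deep cell meets a rule of detected markers more easily, and the part of this in the result was not tested. In Eomes-positive radial glia, *Mfng*, *Dll1*, *Dll3* and *Hes6* were higher, and *Notch1*, *Notch2*, *Notch3*, *Hes1* and *Hes5* were lower. Thus 9 of 10 members were called, 4 higher and 5 lower, where 12.4% of all genes were called, 4.3% higher and 8.1% lower. The median of the members was -0.28, against -0.13 over all genes tested.

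From the levels given above, the log2 difference of *Mfng* was 4.21 ± 0.283 (SE; adjusted p = 1e-18, edgeR), that of *Dll1* 2.65 ± 0.403 (adjusted p = 6.6e-07), that of *Dll3* 2.46 ± 0.439 (adjusted p = 2e-05) and that of *Hes6* 2.41 ± 0.139 (adjusted p = 3.8e-22). The WT1 and WT4 libraries of the 2 gates did not overlap for any of these 4 genes. *Hes5* fell by 3.02 on the log2 scale (SE 0.247, adjusted p = 1.9e-15, edgeR), from 159 and 169 CPM to 17.0 and 23.8 CPM. *Notch2* fell by 2.49 (SE 0.196, adjusted p = 3.1e-16, edgeR) and *Hes1* by 1.83 (SE 0.263, adjusted p = 1.6e-07). For *Hes1* the libraries differed in size, since Eomes-positive radial glia held 12.7 CPM in WT1 and 44.8 CPM in WT4, both below radial glia.

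*Notch1* fell by 0.54 on the log2 scale (SE 0.168, adjusted p = 0.0215, edgeR), and *Notch3* fell by 1.37 (SE 0.385, adjusted p = 0.00953). The call of *Notch1* was lost under 5% mitochondrial UMIs (adjusted p = 0.0765, edgeR) and that of *Notch3* in the DESeq2 test (adjusted p = 0.165). *Jag1* differed by -0.03 ± 0.345 (adjusted p = 0.991, edgeR), with overlapping libraries. Cycling cells, those with at least 3 of 10 cycle genes detected, made up 49.6% and 45.1% of radial glia and 31.1% and 34.0% of Eomes-positive radial glia. Among cycling cells only, 7 members were called, where 5.19% of 11138 genes were. *Notch1* was then at -0.44 ± 0.201 (adjusted p = 0.252, edgeR) and *Notch3* at -0.71 ± 0.432 (adjusted p = 0.426).

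**Figure D2:**
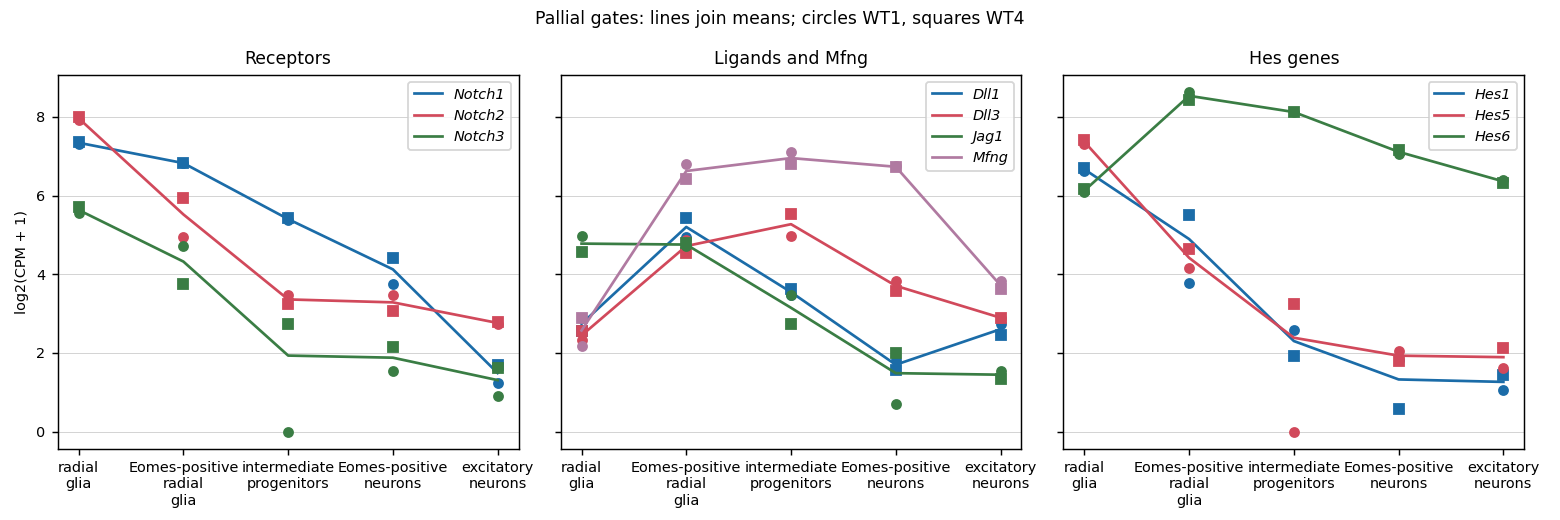
Levels of the receptors (left), the ligands and *Mfng* (middle) and the Hes genes (right) as log2(CPM + 1) on the y axis, in 5 gates of the pallial lineage on the x axis. Circles are WT1, squares WT4, and lines join the means of both. The receptors, *Hes1* and *Hes5* step down from radial glia, while *Hes6* and *Dll1* peak in Eomes-positive radial glia and *Mfng* stays high through Eomes-positive neurons.

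Intermediate progenitors, which by the gate showed at most 2 radial glial markers, held lower receptor and Hes repressor levels than radial glia. Their *Mfng*, *Dll3* and *Hes6* were higher. The name is that of the gate, in which 21.6% of cells in WT1 and 20% in WT4 were cycling. In radial glia it was 49.6% and 45.1%. Whether the other cells of the gate would divide again was not tested. Of 10 members, 9 were called, 6 higher and 3 lower in radial glia, where 13.7% of all genes were called, 7.65% higher and 6.01% lower. The higher ones in radial glia were the 3 receptors, *Jag1*, *Hes1* and *Hes5*, and the lower ones were *Mfng*, *Dll3* and *Hes6*. This comparison shares the radial glia sums with the one before it.

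*Hes1* held 1 UMI in intermediate progenitors of each library, at 5.05 and 2.82 CPM, against 97.5 and 104 CPM in radial glia, a log2 difference of 4.87 ± 0.621 (adjusted p = 5.4e-09, edgeR). *Hes5* held 0 and 3 UMIs, with a difference of 4.98 ± 0.475 (adjusted p = 5.2e-13). *Notch2* differed by 4.84 ± 0.390 (adjusted p = 5.3e-16, edgeR), *Notch3* by 3.78 ± 0.793 (adjusted p = 0.00024) and *Notch1* by 2.0 ± 0.291 (adjusted p = 1.7e-07). *Notch1* thus still stood at 40.4 and 42.3 CPM in intermediate progenitors, below both libraries of radial glia.

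In the other direction, *Mfng* was lower in radial glia, at -4.48 ± 0.347 on the log2 scale (adjusted p = 1.8e-16, edgeR), *Dll3* at -3.07 ± 0.514 (adjusted p = 4.9e-06) and *Hes6* at -1.96 ± 0.182 (adjusted p = 1.4e-13). *Dll1* was not called, at -0.91 ± 0.753 (adjusted p = 0.526, edgeR), on 6 UMIs in the intermediate progenitor gate. *Jag1*, at 1.88 ± 0.666, passed narrowly (adjusted p = 0.0475, edgeR) and was lost with the size factors of DESeq2 (adjusted p = 0.0563), in the DESeq2 test (adjusted p = 0.0866) and with only these 2 gates in the fit (adjusted p = 0.0536). The intermediate progenitor gate held 37 and 75 cells with a median of 4293 and 3950 UMIs, against 9074 and 7150 in Eomes-positive radial glia. The gates require few or many radial glial markers to be detected, so a shallow cell can pass from the latter to the former, and the part of this in the result was not tested.

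Excitatory neurons of the cortical plate, the product of this lineage, had little of most members. Against radial glia, 8 of 10 members were called, 6 higher and 2 lower in radial glia, where 54.9% of all genes were called, 23.6% higher and 31.3% lower. *Notch1* was 6.14 ± 0.181 higher on the log2 scale in radial glia (adjusted p = 1.6e-38, edgeR), *Hes1* 5.85 ± 0.216, *Hes5* 5.61 ± 0.171, *Notch2* 5.17 ± 0.150, *Notch3* 4.68 ± 0.318 and *Jag1* 3.64 ± 0.304. In excitatory neurons *Hes1*, *Hes5* and *Jag1* lay at or below the erythroid share of cells with a UMI after thinning. *Notch3* lay close to it (0.223% against 0.221%). The differences of these genes are thus against a level that reads as background. *Mfng* was lower in radial glia, at -1.48 ± 0.290 (adjusted p = 1.4e-05, edgeR), as was *Hes6* at -0.49 ± 0.127 (adjusted p = 0.00076). The size factors of DESeq2 moved the median of all genes by 0.16 in this comparison. They moved the share of called genes that were higher in radial glia from 43.0% to 52.3%. *Mfng* and *Hes6* kept their direction and call with those size factors. *Dll1* (-0.10 ± 0.371) and *Dll3* (-0.77 ± 0.369) were not called, with adjusted p of 0.832 and 0.0720 in edgeR, and *Dll1* was slightly positive with those size factors (0.06). *Dll3* was called lower in radial glia with stricter gates (-1.22, adjusted p = 0.0123, edgeR) and under 5% mitochondrial UMIs (-1.17, adjusted p = 0.0385).

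Between intermediate progenitors and excitatory neurons, 4 of 10 members were called, all higher in the progenitors, where 14.8% of all genes were called, 5.04% higher and 9.78% lower. *Notch1* was 4.14 ± 0.501 higher on the log2 scale (adjusted p = 1.1e-09, edgeR), *Mfng* 3.01 ± 0.266 (adjusted p = 3e-14), *Dll3* 2.31 ± 0.438 (adjusted p = 4.6e-05) and *Hes6* 1.47 ± 0.165 (adjusted p = 8e-11). The remaining 6 had 0 to 4 UMIs in a library of the progenitor gate and were not called, which does not show that their levels were equal.

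**Figure D3:**
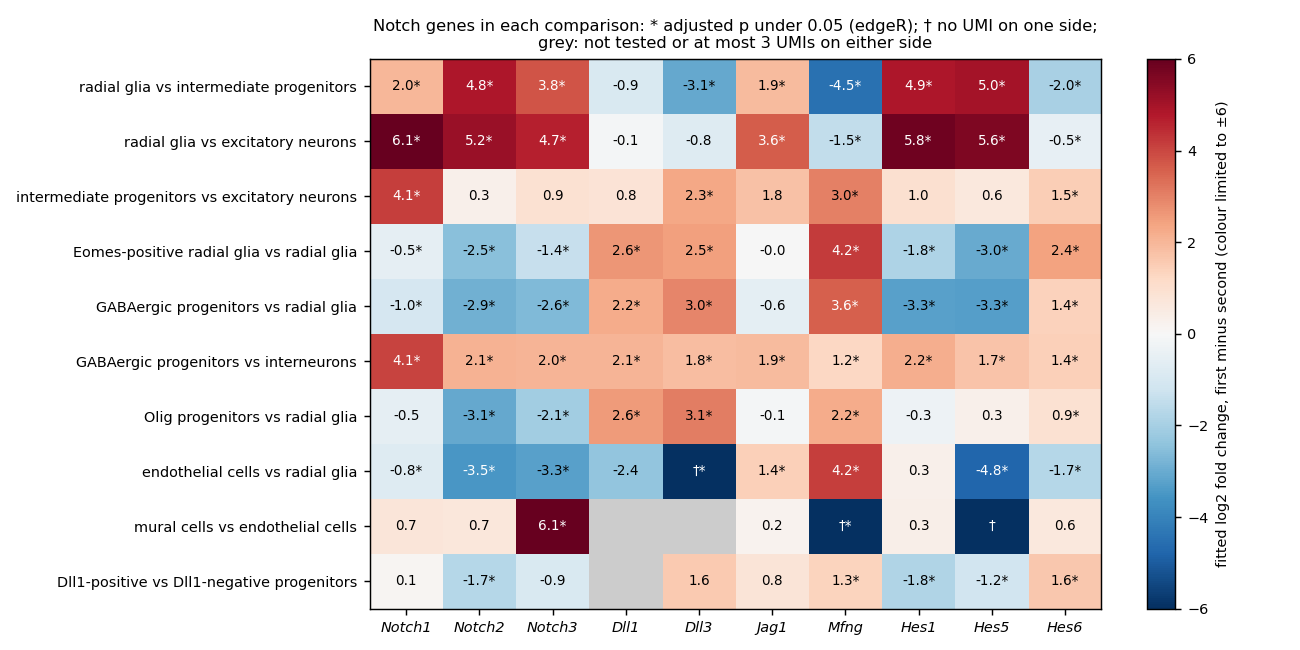
Fitted log2 fold change of each Notch gene (x axis) in each of the 10 comparisons (y axis), first gate minus second, with red for higher in the first. Asterisks mark an adjusted p under 0.05, daggers a side without any UMI and grey cells a gene that was not tested or had at most 3 UMIs in each gate. All 10 members are red for GABAergic progenitors against interneurons, while *Notch3* and *Mfng* alone carry asterisks for mural against endothelial cells.

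To follow the same genes in the ventral lineage, cycling GABAergic progenitors, which give rise to interneurons and striatal cells, were set beside radial glia. This comparison, too, shares the radial glia sums. *Dll3* (2.95 ± 0.344), *Mfng* (3.58 ± 0.258), *Dll1* (2.22 ± 0.356) and *Hes6* (1.39 ± 0.133) were higher on the log2 scale in GABAergic progenitors, each with an adjusted p of at most 5.9e-07 in edgeR. They held less of the receptors and Hes repressors, since *Hes5* fell by 3.31, *Hes1* by 3.25, *Notch2* by 2.86, *Notch3* by 2.63 and *Notch1* by 0.99, with adjusted p of at most 3.6e-08. These were 9 of 10 members, 4 higher and 5 lower, where 34.3% of all genes were called, 17.2% higher and 17.1% lower. *Jag1* was at -0.60 ± 0.291 (adjusted p = 0.106, edgeR), and was called with only these gates in the fit (adjusted p = 0.0161) and with stricter gates (adjusted p = 0.0205). All cells of the GABAergic progenitor gate were cycling by its rule. Against cycling radial glia only, all 10 members were called, where 30.9% of 11138 genes were, with *Jag1* at -0.89 ± 0.284 (adjusted p = 0.0223, edgeR).

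Interneurons, the postmitotic cells of that lineage, were lower in every member. Of 10 members, 10 were called higher in GABAergic progenitors, where 39% of all genes were called, 14.6% higher and 24.5% lower. The GABAergic progenitor gate set no limit on radial glial markers, whereas the interneuron gate did, and the part of this in the result was not tested. Of the progenitors, 25 cells in WT1 and 62 in WT4 had doublet scores in the range removed in an alternative run, and no call changed there. The largest difference was that of *Notch1*, from 84.9 and 75.4 CPM to 4.42 and 3.84 CPM, or 4.05 ± 0.266 on the log2 scale (adjusted p = 9.3e-21, edgeR). The others lay between 1.24 ± 0.187 for *Mfng* and 2.18 ± 0.516 for *Hes1*, and no member's libraries overlapped. *Notch3* rested on 5 and 3 UMIs in interneurons, and its call was lost with stricter gates (adjusted p = 0.142, edgeR). *Hes6* kept 57.5 and 55.8 CPM in interneurons, and *Mfng* 25.2 and 19.9 CPM, while *Hes5* in interneurons lay at or below the erythroid share of cells with a UMI.

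Olig progenitors, gated by at least 2 of *Olig1*, *Olig2*, *Pdgfra* and *Sox10*, held more of the ligands *Dll1* and *Dll3* than radial glia and less *Notch2* and *Notch3*. The Hes repressors were not called, as *Hes5* differed by 0.32 ± 0.178 (adjusted p = 0.378, edgeR) and *Hes1* by -0.30 ± 0.254 (adjusted p = 0.632). Their *Dll3* was 3.06 ± 0.480 higher on the log2 scale (adjusted p = 1.9e-06, edgeR), *Dll1* 2.58 ± 0.492 (adjusted p = 8.3e-05), *Mfng* 2.21 ± 0.522 (adjusted p = 0.00209) and *Hes6* 0.91 ± 0.205 (adjusted p = 0.00113). *Notch2* fell by 3.08 (SE 0.271, adjusted p = 3.3e-14, edgeR) and *Notch3* by 2.11 (SE 0.547, adjusted p = 0.00604), while *Notch1* was at -0.54 ± 0.206 (adjusted p = 0.115). The call of *Notch3* was lost in the DESeq2 test (adjusted p = 0.0997), and *Notch1* was called without a filter on low counts (adjusted p = 0.0250, edgeR). In all, 6 of 10 members were called, 4 higher and 2 lower, where 7.61% of all genes were, 3.91% higher and 3.7% lower. The gate held 37 and 55 cells, of which 0 and 18 had doublet scores in the range removed in an alternative run, and the calls did not change there.

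In the vessels, endothelial cells held *Notch1*, *Jag1*, *Mfng* and *Hes1*. Against radial glia, *Mfng* was 4.17 ± 0.314 higher on the log2 scale (adjusted p = 9.5e-18, edgeR) and *Jag1* 1.44 ± 0.309 higher (adjusted p = 0.00012). *Hes1* was at 0.33 ± 0.207 (adjusted p = 0.239, edgeR), and was called with only these gates in the fit (0.46, adjusted p = 0.0337). *Hes5* fell by 4.77 (SE 0.372, adjusted p = 3e-17, edgeR), *Notch2* by 3.51 (SE 0.260), *Notch3* by 3.27 (SE 0.592), *Hes6* by 1.69 (SE 0.298) and *Notch1* by 0.78 (SE 0.195), each with an adjusted p of at most 0.00091. *Dll3* had no UMI in endothelium, which makes it at least 1.67-fold lower there than in radial glia if 3 UMIs over both libraries are taken as the floor, and its call (adjusted p = 0.0301, edgeR) was lost in 3 alternatives. In all, 8 of 10 members were called, 2 higher and 6 lower, where 32.6% of all genes were, 15.2% higher and 17.4% lower.

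Mural cells differed from endothelial cells in 2 of 10 members, 1 higher and 1 lower, where 12% of all genes were called, 5.57% higher and 6.43% lower. *Notch3* was 6.07 ± 0.505 higher on the log2 scale (adjusted p = 2.1e-15, edgeR), from 0 and 6.82 CPM in endothelium to 339 and 306 CPM. *Mfng*, at 62.9 and 92.8 CPM in endothelium, had no UMI in mural cells, and was at least 13.2-fold lower there against a floor of 3 UMIs over both libraries (adjusted p = 5.3e-09, edgeR). *Notch1* was at 0.71 ± 0.273 (adjusted p = 0.0844, edgeR), and was called in 4 of the alternatives, with adjusted p between 0.0167 and 0.0492. *Hes1* (0.33 ± 0.275) and *Jag1* (0.23 ± 0.367) were not called, with overlapping libraries. Mural cells numbered 26 and 41, and endothelial cells 41 and 90.

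Cells with at least 1 *Dll1* UMI were also compared with those without, over radial glia, Eomes-positive radial glia and intermediate progenitors together. A UMI does not by itself show that a cell expressed *Dll1*, since at 1500 UMIs per cell the share with a *Dll1* UMI was 0.252% ± 0.221 (SD, n = 2) in erythroid cells, 0.991% ± 0.399 in radial glia and 6.15% ± 3.11 in Eomes-positive radial glia. How many of the positive cells held free RNA was not tested. The 29 and 39 *Dll1*-positive cells held *Hes6* at 371 and 414 CPM, against 140 and 123 CPM in the 340 and 604 negative cells, or 1.61 ± 0.174 on the log2 scale (adjusted p = 4.4e-17, edgeR). *Mfng* was higher by 1.34 ± 0.309 (adjusted p = 0.00082, edgeR), and *Hes1* fell by 1.81, *Notch2* by 1.71 and *Hes5* by 1.17. These were 5 of the 9 other members, 2 higher and 3 lower, where 4.68% of 11697 genes were called, 1.42% higher and 3.27% lower. *Hes1* held 10.7 CPM in WT1 and 35.8 CPM in WT4 in positive cells, against 77.0 and 86.4 CPM in negative cells. *Notch2* held 32.1 and 87.6 CPM against 191 and 202 CPM, and *Hes5* 42.8 and 67.7 CPM against 121 and 130 CPM. All 3 genes were lower in the positive cells of both libraries, and for each the gap was wider in WT1. The call of *Hes5* was lost in the DESeq2 test (adjusted p = 0.270) and with stricter gates (adjusted p = 0.0602, edgeR), as was that of *Mfng* (adjusted p = 0.257 and 0.206). With stricter gates 3 of 9 members were called, where 2.17% of 11512 genes were, and in the DESeq2 test 2 of the 5 with an adjusted p, where 2.86% of 3533 genes were. Of the positive cells, 55.2% and 59.0% were Eomes-positive radial glia, against 17.1% and 12.7% of the negative cells, and their median depth was 8613 and 6310 UMIs against 6723 and 4786.5.

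Within 1 gate fewer members were called, on fewer cells. In radial glia alone, with 11 and 12 positive cells, *Hes6* stood at 262 and 286 CPM in positive cells and at 59.4 and 64.5 CPM in negative cells, a difference of 2.03 ± 0.320 (adjusted p = 0.0184, edgeR), and 1 of 7 members tested was called, where 0.127% of 11040 genes were, with 2 at an unadjusted p under 0.05. The other was *Notch2*, at -1.16 ± 0.365 (adjusted p = 0.472, edgeR), with 69.0 and 174 CPM in positive cells against 249 and 258 CPM, and *Hes1* was at -0.93 ± 0.492 (adjusted p = 0.833). *Hes5* was at -0.25 ± 0.333 there (adjusted p = 0.954, edgeR), with 138 and 162 CPM against 160 and 169 CPM. In Eomes-positive radial glia alone, with 16 and 23 positive cells, 0 of 7 were called at an adjusted p under 0.05 in edgeR and 0 at an unadjusted p under 0.05, where 0.558% of 6635 genes were called, and *Hes6* was at 0.34 ± 0.174 (adjusted p = 0.719).

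**Figure D4:**
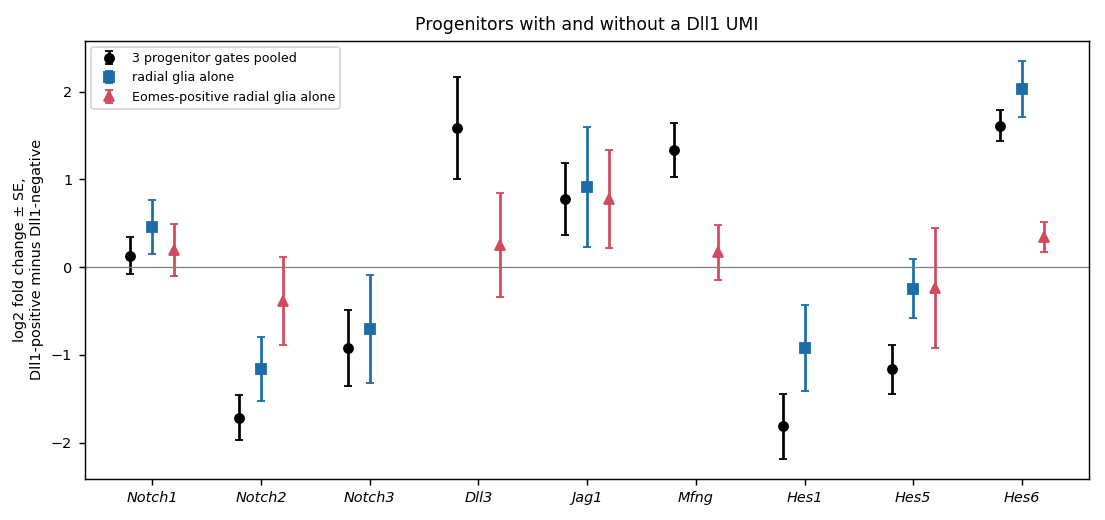
Log2 fold change with SE (y axis) of the other Notch genes (x axis) between progenitors with and without a *Dll1* UMI, for the 3 progenitor gates pooled (black circles), radial glia alone (blue squares) and Eomes-positive radial glia alone (red triangles). Missing points were too low to test. *Hes6*, at 1.61 when pooled, lies at 2.03 in radial glia alone and 0.34 in Eomes-positive radial glia alone, and *Hes5*, at -1.17 when pooled, lies at -0.25 and -0.24.

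The other 41 genes of the pathway are a list of ligands, enzymes, nuclear partners and targets. Among them 17.1% were called against 13.7% of all genes for radial glia against intermediate progenitors (6 higher, 1 lower), 56.1% against 54.9% for radial glia against excitatory neurons (12 higher, 11 lower) and 24.4% against 14.8% for intermediate progenitors against excitatory neurons (5 higher, 5 lower). For Eomes-positive against other radial glia the shares were 22.0% and 12.4% (2 higher, 7 lower), and for Olig progenitors against radial glia 14.6% and 7.61% (4 higher, 2 lower). For GABAergic progenitors they were 43.9% and 34.3% against radial glia (7 higher, 11 lower) and 43.9% and 39% against interneurons (6 higher, 12 lower). In the vessels they were 48.8% and 32.6% for endothelial cells against radial glia (9 higher, 11 lower) and 24.4% and 12% for mural against endothelial cells (5 higher, 5 lower). In the *Dll1* comparison, where 35 of the 41 genes were tested, they were 2.86% and 4.68% (1 lower).

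*Lfng*, Lunatic Fringe, was higher in radial glia than in Eomes-positive radial glia and intermediate progenitors, whereas *Mfng* was lower in radial glia than in both. It stood at 29.9 and 39.2 CPM in radial glia and 24.4 and 22.4 CPM in Olig progenitors, at 2.83 and 4.20 CPM in Eomes-positive radial glia, and had no UMI in intermediate progenitors. It fell by 3.29 on the log2 scale from radial glia to Eomes-positive radial glia (SE 0.555, adjusted p = 6.7e-06, edgeR), and was at least 6.48-fold lower in intermediate progenitors. Of the 35 other pathway genes tested in the *Dll1* comparison it was the 1 called, with a fall of 2.18 in positive cells (SE 0.694, adjusted p = 0.0381, edgeR). That call rests on 1 and 2 UMIs in positive cells against 61 and 105 UMIs in negative cells, over gates that themselves differ in *Lfng* and in their share of positive cells. *Rfng*, Radical Fringe, held 13.0 and 13.6 CPM in radial glia and 16.9 and 21.7 CPM in excitatory neurons.

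The targets and feedback genes of the list did not move together. Between radial glia and excitatory neurons, *Hey1*, *Hey2*, *Heyl* and *Nrarp* were called higher in radial glia, *Dtx1* was called lower (-2.02, adjusted p = 8.1e-14, edgeR), and *Dtx2*, *Dtx3* and *Dtx4* were not called. *Nrarp*, a feedback inhibitor that Notch itself induces, stood at 66.7 and 52.7 CPM in radial glia and 2.0 and 2.15 CPM in excitatory neurons, a log2 difference of 4.52 ± 0.209 (adjusted p = 1.1e-28, edgeR), and in GABAergic progenitors it was lower than in radial glia by 1.89 (-1.89 ± 0.217, adjusted p = 6.5e-11). The repressor *Hey1* held 18.9 and 19.2 CPM in radial glia and no UMI in intermediate progenitors, at least 3.52-fold less. The coactivators split, since *Maml2* was 1.86 ± 0.218 higher in radial glia than in intermediate progenitors (adjusted p = 4.6e-10, edgeR), while *Maml3* was 1.31 ± 0.174 higher in Eomes-positive than in other radial glia (adjusted p = 2e-08) and 1.61 ± 0.152 higher in GABAergic progenitors (adjusted p = 6.6e-14).

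In the vessels, several other ligands and targets differed between endothelial and mural cells. *Dll4*, the ligand of sprouting endothelium, held 44.5 and 46.4 CPM in endothelial cells and 0 and 0.753 CPM in radial glia (6.73 ± 0.809 on the log2 scale, adjusted p = 2.9e-10, edgeR). *Notch4*, an endothelial receptor, held 41.9 and 46.4 CPM and *Jag2* 31.4 and 43.7 CPM there. In mural cells *Dll4* fell by 2.95 (SE 0.874, adjusted p = 0.0142, edgeR), to 9.41 and 3.73 CPM, whereas *Notch4*, at 23.5 and 33.6 CPM, was not called against endothelium (-0.73 ± 0.546, adjusted p = 0.519). *Heyl*, a Hey repressor, held 235 and 187 CPM in mural cells and no UMI in endothelium, at least 77.3-fold less, and *Hey2* held 80.0 and 74.6 CPM against 2.62 and 1.36 CPM. *Dlk1*, a Delta-like protein without the usual receptor-binding domain, held 104 and 172 CPM in mural cells and none in endothelium, at least 52.6-fold less, and *Jag2* had no UMI in mural cells, at least 6.32-fold less than in endothelium.

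**Figure D5:**
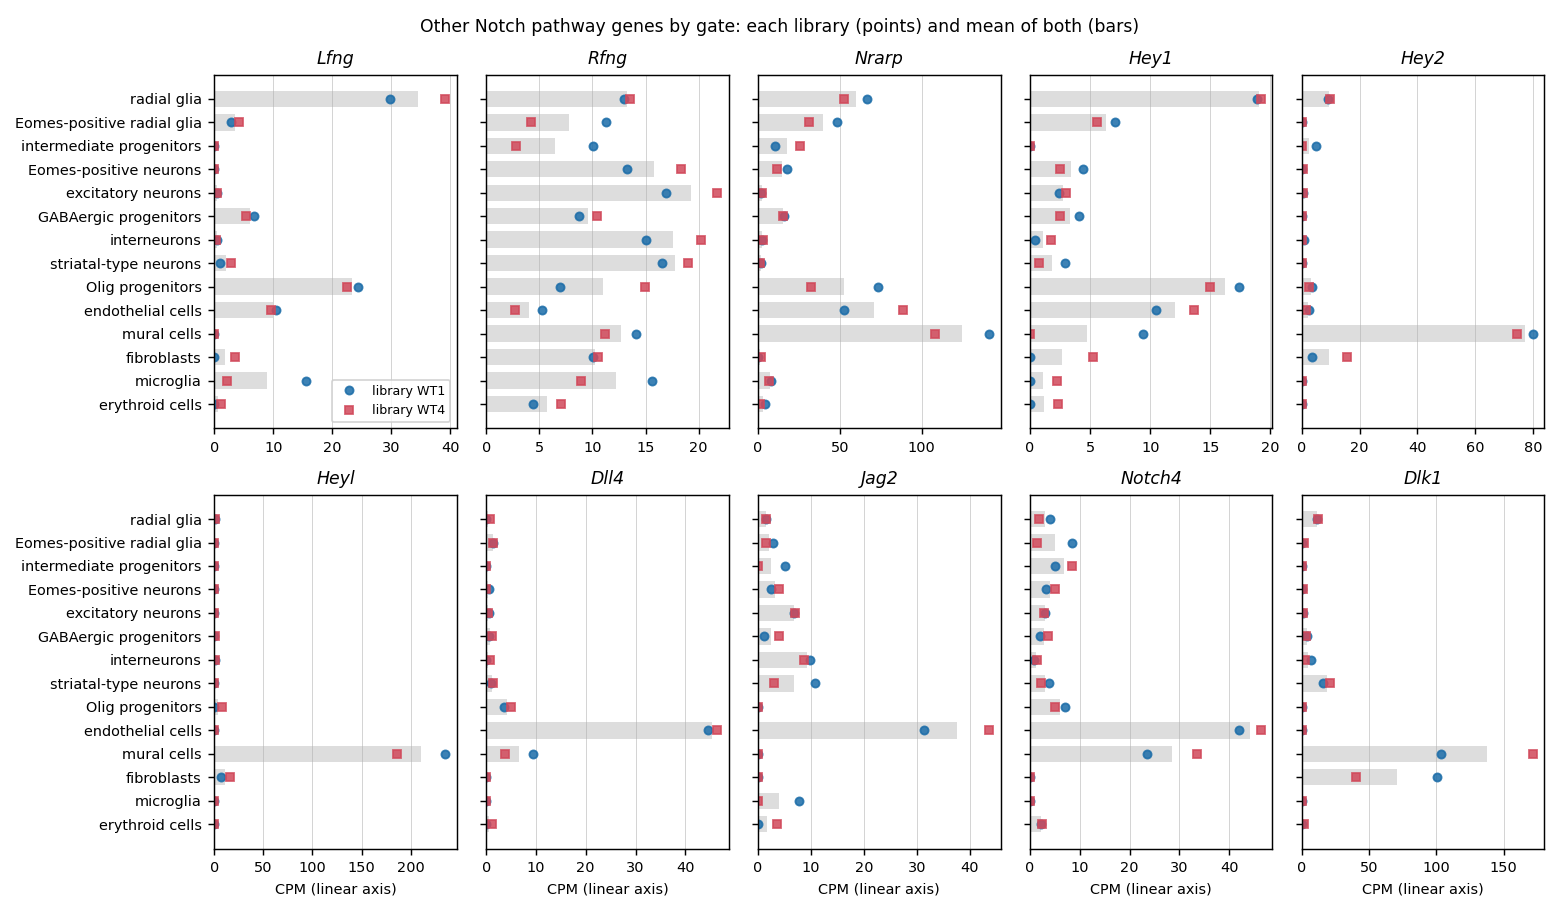
Levels of 10 further Notch pathway genes (x axis, CPM, linear, scaled per gene) in the 14 gates (y axis), with circles for WT1, squares for WT4 and grey bars for their mean. *Lfng* and *Hey1* are highest in radial glia, *Nrarp*, *Hey2*, *Heyl* and *Dlk1* in mural cells, and *Dll4*, *Jag2* and *Notch4* in endothelial cells.

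Over the 14 gates, the members were set side by side in pairs by their mean log2(CPM + 1). The measure is Pearson's r across gates that share libraries and depth, and no grouping was run. Among the highest pairs, *Dll3* and *Hes6* had an r of 0.88, *Jag1* and *Hes1* of 0.88, *Dll1* and *Hes6* of 0.80 and *Notch2* and *Hes1* of 0.79. *Notch3* and *Jag1* had an r of 0.78, *Dll1* and *Dll3* of 0.77 and *Notch1* and *Hes1* of 0.75. *Hes1* and *Hes5* had an r of 0.37. Among 7330 genes with at least 50 CPM in some gate, the genes most like *Hes1* were *Tcf7l1* (0.97), *Gulp1* (0.96) and *Nes* (0.96), those most like *Hes5* were *Scrg1* (0.93), *Aldh1l1* (0.93) and *Ttyh1* (0.91), and those most like *Hes6* were *Cbfa2t2* (0.92), *Mrto4* (0.92) and *Insm1* (0.92). *Dll1* was most like *Gadd45g* (0.87), *Prim1* and *Anp32e*, *Dll3* most like *Myt1* (0.93), *Dleu7* and *Zfp219*, and *Jag1* most like *Bicc1* (0.94), *Parva* and *Id1*. *Notch1* was most like *Myo10* (0.94), *Smco4* and *Mcm6*, *Notch2* most like *Eepd1* (0.95), *Oat* and *Samd4*, *Notch3* most like *AW011738* (0.93), *Ecm2* and *Vasn*, and *Mfng* most like *Lrp8* (0.85), *Dck* and *Usp3*.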

How the data were processed

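Gene counts were deposited by the authors as raw UMI counts per gene and barcode for each of 2 libraries, with no normalization, after the barcode filter of Cell Ranger (7.1.0 in the file header, 7.0.0 in the submitters' processing notes, build mm10). Symbols come from the deposited gene list. The members and lists were chosen with earlier results of these data known.

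Cells had 1500 to 60000 UMIs and under 10% mitochondrial UMIs. Gates used 87 marker genes, which were not tested, and 0 cells met several gates. Counts were summed per library and gate (at least 20 cells in each) and tested with edgeR 4.0.16 in R 4.3.3 (TMM, genes that reached 10 counts in 2 or more sums, quasi-likelihood test, library as a block because every gate comes from the same libraries, Benjamini-Hochberg adjustment over all genes tested). The SE was derived from the F statistic, as the ratio of the log2 fold change to its root. The script was tested on simulated data. Thinned shares are expected shares at 1500 UMIs per cell. All 10 members are named, and of 41 other pathway genes per comparison the 5 called ones of greatest fold change that reached 10 CPM in a gate and moved alike in both libraries, of which the text gives a part. Outside that rule, and chosen after their values were seen, are *Rfng* in radial glia, *Hey2*, *Heyl* and the *Dtx* genes between radial glia and excitatory neurons, and *Dll4* and *Notch4* between mural and endothelial cells. Likeness was taken over genes with at least 50 CPM in some gate. Doublets were removed only in an alternative, by Scrublet scores (scanpy 1.11.5) at 0.8% per 1000 barcodes, or 432 and 1111 cells, since automatic thresholds marked 0 and 251. Other alternatives used DESeq2 1.42.0 or its size factors, no filter, no block, stricter gates, under 5% mitochondrial UMIs or only the compared gates. Total UMIs per library were 46398156 and 64324236. Intervals and floors cover counting error only. RefSeq promoter entries were not used for *Hes1* and *Mfng*.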

Additional observations from a re-analysis of the deposited data

How the results depend on the processing

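The number of members called stayed within 1.5 times its reported value in all comparisons between gates, under every alternative that gave a test. Gates are taken from the same libraries, so the library pairs them. Without the library block the counts of called members were 9, 8, 4, 9, 9, 10, 6, 8, 2 and 5 in the order of the comparisons in the fold change plot, as with it, and leaving out the block changed no member's call. In the *Dll1* comparison the count of 5 of 9 members was 2 of the 5 with an adjusted p in the DESeq2 test (*Hes1* had none), 3 with stricter gates, 1 in radial glia alone and, in a run added after seeing the data, 0 in Eomes-positive radial glia alone. Over all genes it was 548 of 11697, against 101 of 3533 in the DESeq2 test, 250 of 11512 with stricter gates, 14 of 11040 in radial glia alone and 37 of 6635 in Eomes-positive radial glia alone. The comparison within 1 gate has fewer cells by construction.

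The signs that turned were all of members not called. *Dll1* between radial glia and excitatory neurons was 0.0566 with the size factors of DESeq2, 0.0569 in its test and 0.0418 with only these gates in the fit. *Jag1* between Eomes-positive and other radial glia was 0.0466 with only these gates, 0.20 with stricter gates and 0.27 in cycling cells. *Notch1* in the *Dll1* comparison was -0.0490 with stricter gates and -0.00743 under 5% mitochondrial UMIs. Between intermediate progenitors and excitatory neurons, the size factors of DESeq2 moved the median of all genes by 0.20, and the share of called genes that were higher in the former from 34.0% to 50.2%. The same scaling changed no direction or call of a member there. Cycling-only runs were also added after seeing the data. With under 5% mitochondrial UMIs the intermediate progenitor, Olig progenitor, endothelial and mural gates held under 20 cells in a library, as did Olig progenitors with stricter gates, and gave no value. The *Dll1* comparison in intermediate progenitors alone, with 2 and 4 positive cells, was not run.

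Leaving out 1 library leaves 1, so the value is the plain CPM ratio of the other library, with no test. It was set against the fitted log2 fold change, which rests on TMM scaling and not on plain CPM. A gap thus mixes the loss of a library with that change of scaling, and their parts were not tested. Of 174 such values 64 lay further from the fit than the SD between libraries. The sign differed in 7, all of members not called. Of the 128 values of called members 20 lay over 1.5-fold from the fit. For *Notch1* between radial glia and excitatory neurons both plain ratios, 6.87 in WT1 and 6.19 in WT4, lay above the fitted 6.14. Without WT4, on the log2 scale, *Hes1* was -2.94 between Eomes-positive and other radial glia (-1.21 without WT1), 4.27 between radial glia and intermediate progenitors, 6.51 between radial glia and excitatory neurons and -2.85 in the *Dll1* comparison, where *Notch2* was -2.57. Also without WT4, *Notch1*, *Notch3* and *Hes5* were 6.87, 5.74 and 6.26 between radial glia and excitatory neurons, *Notch1* was 4.89 between intermediate progenitors and excitatory neurons, *Hes5* was 2.71 between GABAergic progenitors and interneurons and -5.93 in endothelial cells against radial glia, and *Mfng* was -5.29 in radial glia against intermediate progenitors and 4.98 and 4.17 in Eomes-positive radial glia and GABAergic progenitors against radial glia. *Notch2* in Olig progenitors against radial glia was -2.42 without WT4 and -3.68 without WT1. Without WT1, *Mfng* was -0.81 between radial glia and excitatory neurons, and *Notch3* was -2.03 in Eomes-positive against other radial glia and 2.71 between GABAergic progenitors and interneurons.

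With 2 libraries, the order of gates that hold a handful of UMIs of a gene is uncertain at this depth.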
